A study of Homo sapiens with 60 samples.

Results

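The genes described here are the 37 that human mitochondrial DNA encodes: 2 rRNA genes, 22 tRNA genes and 13 protein genes. They were taken as every row of the gene table whose identifier carries a symbol that begins with MT-, and they are 37 of the 60675 genes listed. RNA was sequenced from SW1783, an established human astrocytoma line, after 24 h with 1 of 7 water extracts or with vehicle. The extracts were Citri Unshius Pericarpium (dried mandarin peel), Cimicifugae Rhizoma, Bupleuri Radix, Aconiti Lateralis Radix Preparata (processed aconite root), and the formulas Yijung-tang, Banhasasim-tang and Bojungikgi-tang. Each extract was given at 20, 100 or 500 µg/mL, called the low, medium and high dose. Every group had 3 libraries, except Bojungikgi-tang with 1 library per dose. The vehicle group was 0.1% DMSO by the sample labels, whereas the series' design text gives 2%, and no DMSO content is labelled for the extracts. The cells are 1 tumour line, and the labels do not say whether the replicates were separate cultures, so p-values measure the spread between these libraries, which may be technical.

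Mitochondrial DNA is transcribed from both strands into long precursors. The tRNAs punctuate the precursor, and their excision frees the rRNAs and the messenger RNAs. The heavy-strand precursor holds both rRNAs near its start, then MT-ND1 and MT-ND2, and then 10 further protein genes. MT-ND6 is the only protein gene on the light strand. The rRNAs build the mitochondrial ribosome, and the 13 proteins are subunits of respiratory complexes I, III and IV and of the ATP synthase, the machinery of oxidative phosphorylation. Mitochondrial messengers mostly carry short poly(A) tails, the rRNAs carry only a few terminal adenines, and MT-ND6 messenger is known to lack a long tail. A library made from poly(A) RNA therefore does not sample the classes equally. The labels here describe an mRNA library and do not name the step that selected mRNA.

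MT-RNR1, the rRNA of the small ribosomal subunit, lies at chrM:648-1601 and MT-RNR2, the rRNA of the large subunit, at chrM:1671-3229, both on the plus strand of GRCh38, with the tRNA gene MT-TV between them at chrM:1602-1670. Both are single exons without introns or UTRs in the annotation. MT-ND1 follows at chrM:3307-4262 and MT-ND2 at chrM:4470-5511. The rRNAs hold internal runs of adenine, shown here because the results turn on these genes and because adenine runs bear on how an mRNA library samples an RNA. The capitals mark the longest run of each gene, with 18 bases on each side, at chrM:975-1016 and chrM:2439-2481.
MT-RNR1: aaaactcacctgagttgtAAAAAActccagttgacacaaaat
MT-RNR2: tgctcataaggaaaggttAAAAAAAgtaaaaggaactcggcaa
The longest adenine run was 6 bases in MT-RNR1 and 7 bases in MT-RNR2, and 3 to 8 bases in the protein genes, with 8 in MT-ND5. Adenine made up 33.0% of MT-RNR1 and 35.1% of MT-RNR2, against 38.6% of MT-ATP8 and 19.6% of MT-ND6, the highest and lowest of the protein genes.

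Some protein genes overlap, and their reads cannot be assigned with certainty. MT-ATP6 and MT-CO3 share 1 base at chrM:9207, which is not shown. MT-ATP8 and MT-ATP6 share 46 bases at chrM:8527-8572, and MT-ND4L and MT-ND4 share 7 bases at chrM:10760-10766. The capitals mark the shared bases on the plus strand, each stretch with 12 bases on either side.
MT-ATP8 and MT-ATP6: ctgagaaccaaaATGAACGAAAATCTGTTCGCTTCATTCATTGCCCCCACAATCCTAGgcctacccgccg
MT-ND4L and MT-ND4: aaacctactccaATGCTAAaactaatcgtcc
Each shared stretch shown opens with the start codon of the downstream gene. MT-ATP8 is 207 bases long, so the overlap is a large part of it, and its values and those of MT-ND4L are uncertain for this reason. MT-ND6 at chrM:14149-14673 lies on the minus strand opposite the heavy-strand precursor. No source used here gives the strand setting of the counting, so its reads and antisense reads may not have been told apart.

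Total expected counts ranged from 18.9 to 36.4 M per library. VIM, CD44, SOX9 and SLC1A3 were present, but the astrocyte markers GFAP, AQP4, S100B, ALDH1L1 and SLC1A2 stayed below 1 CPM in every library. Of 5 neuronal genes, SNAP25, SYT1 and MAP2 had medians of 33.6, 28.1 and 8.21 CPM, and SYP and RBFOX3 of 0.859 and 0.207 CPM. Of 5 microglial genes, PTPRC and CSF1R had medians of 12.98 and 3.37 CPM, and CX3CR1, AIF1 and P2RY12 of 0. MBP was the only gene of 4 oligodendrocyte and 4 endothelial markers to average at least 1 CPM. The sample codes fall into sets. Set 5 holds Citri and Cimicifugae, set 6 Bupleuri and Aconiti, set 7 both of the formulas Yijung-tang and Banhasasim-tang, and set 8 Bojungikgi-tang, while vehicle has a code of its own. Code set, solvent and treatment cannot be told apart in a comparison with vehicle, so extracts of a set were also compared with each other. The third Cimicifugae high-dose library and the third Citri low-dose library stood apart, with the highest root mean square log2 deviations from their groups over all genes tested (0.274 and 0.271, next 0.248) and with 7.69% and 7.37% of counts on mitochondrial genes. The first Yijung-tang high-dose library held 8.21%.

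Of the 37 genes, 15 passed the filter on low counts: both rRNAs and all 13 protein genes. The 22 tRNAs did not. Of these, 14 were at 0 in all 60 libraries and 8 had any count. A count of 0 in a library allows up to 3 counts, or 0.0824 to 0.159 CPM over these depths, counting error only. All tRNA counts together came to 69 over the 60 libraries. The highest single total was 27, for MT-TQ, the glutamine tRNA, spread over 20 libraries, and the next were MT-TA (alanine) with 18, MT-TM (methionine) with 9, MT-TS1 (serine) with 8 and MT-TN (asparagine) with 3. No tRNA exceeded 3 counts in a library, so no comparison of tRNAs between groups was possible at this depth.

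Aconiti Lateralis Radix Preparata was the extract whose libraries held the most mitochondrial rRNA. The 2 rRNA genes took 0.922%, 0.912% and 0.960% of all counts in the 3 vehicle libraries. In the Aconiti libraries their share was 3.33%, 3.01% and 3.10% at the low dose, 7.76%, 8.05% and 7.67% at the medium dose, and 5.96%, 5.76% and 6.06% at the high dose. In all 51 libraries without Aconiti the share lay between 0.710% and 1.26%, with a median of 1.01%, so the 9 Aconiti libraries stood wholly above them. The medium dose was the highest of the Aconiti doses and did not overlap the others.

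The 13 protein genes together took a smaller share at the medium and high dose of Aconiti. Their share was 4.21% ± 0.109 in vehicle (SD, n = 3), 3.82% ± 0.397 at the low dose, 2.83% ± 0.0580 at the medium dose and 3.26% ± 0.0527 at the high dose (n = 3 each). The medium- and high-dose libraries, from 2.79% to 3.32%, lay below all 51 libraries without Aconiti, which ranged from 4.10% to 7.37%. The low-dose libraries, from 3.44% to 4.23%, overlapped them. All mitochondrial genes together took 5.14% ± 0.134 of the counts in vehicle, 6.96% ± 0.559 at the low dose, 10.7% ± 0.161 at the medium dose and 9.19% ± 0.169 at the high dose. The rRNAs made up 18.1% of the mitochondrial counts in vehicle, 45.2% at the low, 73.5% at the medium and 64.5% at the high dose of Aconiti. In bulk RNA, fewer cells with a given RNA and less of that RNA per cell cannot be told apart, and a share also moves with the rest of the library.

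**Figure D1:**
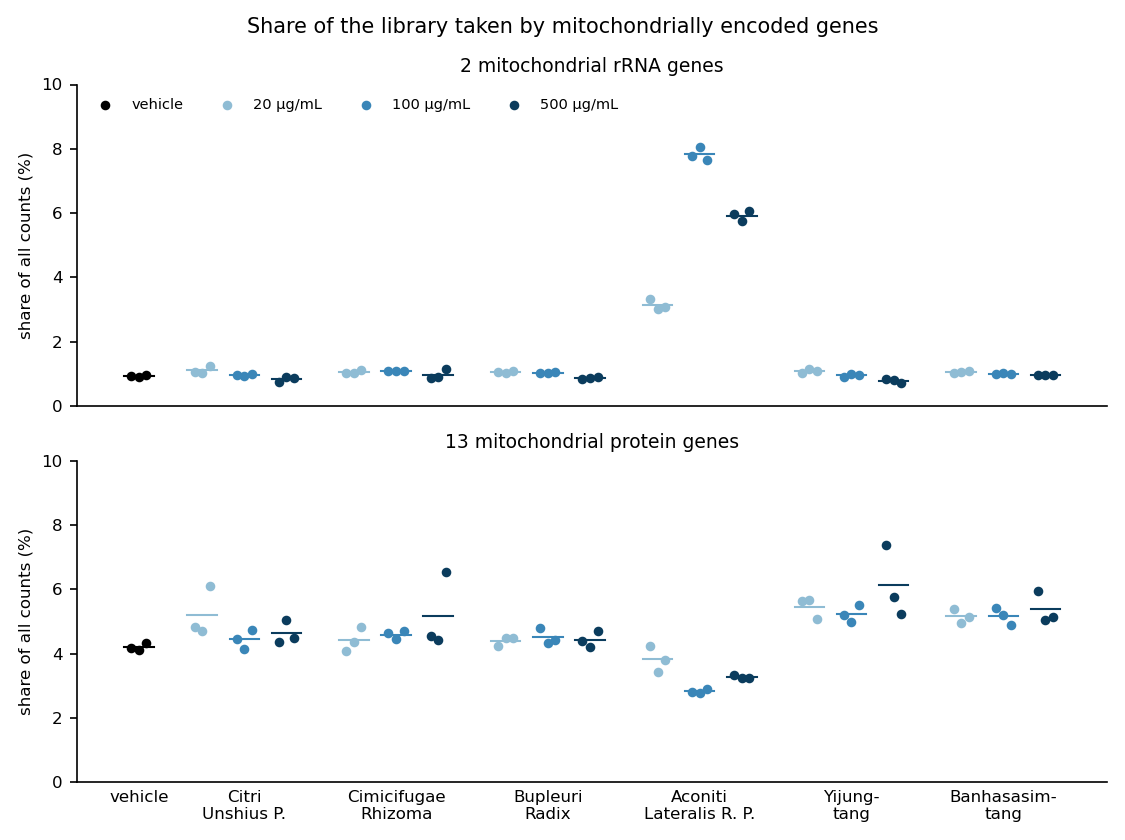
Share of all counts (%, y axis) taken by the 2 mitochondrial rRNA genes (top) and the 13 mitochondrial protein genes (bottom) in vehicle and in each extract at 20, 100 and 500 µg/mL (x axis). Points are single libraries and bars are means of 3. The 9 Aconiti libraries lie between 3.01% and 8.05% for rRNA, above all others, and their medium- and high-dose libraries lie lowest for the protein genes.

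From here on, levels of single genes are given as CPM, each gene's count brought to a common library size with TMM factors. They were tested by the quasi-likelihood test of edgeR, with p-values adjusted by the Benjamini-Hochberg method over the 17190 genes tested. A gene was called at an adjusted p under 0.05. Per kilobase of gene, vehicle libraries held most of MT-CO1 (7301 ± 198 CPM per kb, SD, n = 3) and MT-CO2 (7026 ± 34.2), then MT-CO3 (5569 ± 134) and MT-RNR2 (5506 ± 162), whose ranges overlapped. MT-ND4 and MT-ATP6 came next, at 4036 ± 202 and 3969 ± 157 CPM per kb, also with overlapping ranges. MT-RNR1 stood near the bottom of the order, at 713 ± 22.8 CPM per kb, between MT-ATP8 at 881 and MT-ND6 at 469 CPM per kb. Under Aconiti at the medium dose MT-RNR2 led with 44412 CPM per kb, followed by MT-RNR1 with 15855, and MT-CO1 was the highest protein gene with 5116 CPM per kb.

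MT-RNR1 was 673, 663 and 704 CPM in vehicle, 4558, 4091 and 3998 CPM at the low dose of Aconiti, 14631, 15740 and 15006 CPM at the medium dose, and 13600, 13306 and 13774 CPM at the high dose. No dose overlapped another or the vehicle, and the other 45 extract libraries with the 3 of vehicle ranged from 491 to 826 CPM. MT-RNR2 was 8503, 8382 and 8867 CPM in vehicle, 29550, 26398 and 27326 CPM at the low dose, 68832, 71527 and 67356 CPM at the medium dose, and 51387, 49179 and 52174 CPM at the high dose. It too peaked at the medium dose without overlap. The 48 tested libraries without Aconiti ranged from 6462 to 11910 CPM for this gene.

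Over vehicle, MT-RNR1 was 6.2-fold higher at the low dose (log2 2.63 ± 0.08 SE, adjusted p = 6.3e-29), 22.2-fold higher at the medium dose (log2 4.48 ± 0.09, adjusted p = 2.3e-38) and 19.9-fold higher at the high dose (log2 4.32 ± 0.09, adjusted p = 1.1e-38). MT-RNR2 was 3.23-fold higher at the low dose (log2 1.69 ± 0.07, adjusted p = 3.3e-23), 8.07-fold at the medium dose (log2 3.01 ± 0.08, adjusted p = 6.4e-34) and 5.93-fold at the high dose (log2 2.57 ± 0.08, adjusted p = 2.2e-32). Of all genes tested, 2.19% were called at the low dose, 31.1% at the medium dose and 60.4% at the high dose of Aconiti against vehicle. The low-dose rise of the rRNAs thus occurred where few genes of the table were called. The summed microglial markers were 16.6 to 17.2 CPM in vehicle, 15.4 to 16.7 CPM at the low dose, 10.0 to 11.4 CPM at the medium dose and 4.64 to 6.54 CPM at the high dose of Aconiti, and the summed neuronal markers 74.8 to 77.2, 61.8 to 68.2, 57.6 to 59.9 and 60.3 to 64.4 CPM. The oligodendrocyte sum was 6.82 to 8.50, 7.14 to 8.05, 7.80 to 8.97 and 11.85 to 11.99 CPM in the same groups. The astrocyte sum was 7108 to 7478 CPM in vehicle. It was 7234 to 7292, 6868 to 7182 and 6970 to 7010 CPM at the low, medium and high dose of Aconiti. Unlike the gene levels, these marker sums are CPM over the library total, without TMM factors. The factors were 0.917 to 0.922 at the high dose of Aconiti and 1.003 to 1.009 in vehicle. Scaled sums would thus stand higher at that dose beside vehicle. The order of the astrocyte sums depends on this choice, so no fall of that sum is read from them. The part of these marker levels in the mitochondrial results was not tested.

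The same held against Bupleuri Radix, the root extract whose sample codes share set 6 with Aconiti. MT-RNR1 at the low dose was 4558, 4091 and 3998 CPM with Aconiti, against 753, 740 and 776 CPM with Bupleuri (log2 2.48 ± 0.08, adjusted p = 6.8e-28). The difference was log2 4.45 ± 0.09 at the medium dose (adjusted p = 2.7e-38) and 4.47 ± 0.09 at the high dose (adjusted p = 4.1e-39). For MT-RNR2 the differences were 1.50 ± 0.07, 2.85 ± 0.08 and 2.65 ± 0.08 at the low, medium and high dose, with adjusted p = 4.7e-21, 6.2e-33 and 8.1e-33. Only 0.535% of all genes tested were called between these extracts at the low dose, against 28.6% at the medium and 58.3% at the high dose. The change between high and low dose itself differed between Aconiti and Bupleuri, by log2 1.99 ± 0.11 for MT-RNR1 (adjusted p = 2.5e-20) and 1.15 ± 0.10 for MT-RNR2 (adjusted p = 1.8e-13), in a comparison that called 44% of all genes.

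The 2 rRNAs did not keep their proportion. Per kilobase, MT-RNR1 stood to MT-RNR2 as 0.129 in vehicle, 0.248 ± 0.00786 at the low dose of Aconiti, 0.357 ± 0.00866 at the medium dose and 0.435 ± 0.00591 at the high dose (SD, n = 3 each). The 51 libraries without Aconiti ranged from 0.108 to 0.130. The ratio was therefore highest at the high dose, although both levels were highest at the medium dose. Between the high and the medium dose, MT-RNR2 fell (log2 -0.44 ± 0.07, adjusted p = 1.0e-06), while MT-RNR1 differed by -0.16 ± 0.08 (adjusted p = 0.097), in a comparison that called 47.1% of all genes.

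MT-ND1 and MT-ND2, the complex I subunits encoded directly after the rRNAs, rose at the low dose of Aconiti but were not called against vehicle at the other doses. MT-ND1 was 2470, 2310 and 2802 CPM in vehicle, 5230, 3527 and 3995 CPM at the low dose, 2721, 2907 and 2845 CPM at the medium dose, and 2646, 2634 and 2746 CPM at the high dose. MT-ND2 was 2688, 2535 and 2810 CPM in vehicle, 5389, 3505 and 4143 CPM at the low dose, 2680, 2715 and 2736 CPM at the medium dose, and 2758, 2731 and 3077 CPM at the high dose. The low-dose libraries lay above vehicle for both genes, the first of them highest by far. Over vehicle the low dose gave log2 0.75 ± 0.14 for MT-ND1 (adjusted p = 8.1e-04) and 0.70 ± 0.14 for MT-ND2 (adjusted p = 1.6e-03).

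Both fell between the low and the high dose, by 0.67 ± 0.14 for MT-ND1 (adjusted p = 6.3e-05) and by 0.61 ± 0.14 for MT-ND2 (adjusted p = 2.0e-04) on the log2 scale. In that comparison 57.8% of all genes tested were called, and of the 15 mitochondrial genes 2 rose, both rRNAs, and 2 fell. Against Bupleuri at the low dose, MT-ND1 was 0.69 ± 0.14 higher (adjusted p = 4.5e-03) and MT-ND2 0.57 ± 0.14 higher (adjusted p = 0.036). Without the first Aconiti low-dose library these became 0.52 (adjusted p = 0.137) and 0.39 (adjusted p = 0.397), so the calls against Bupleuri rest on it. MT-ND2 also lost that call without any 1 of the 3 Bupleuri low-dose libraries, or without the third Aconiti one, with adjusted p from 0.0754 to 0.201. Against vehicle both genes kept their calls with any 1 library left out.

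The high minus low dose change of Aconiti differed from that of Bupleuri by log2 -0.55 ± 0.20 for MT-ND1 (adjusted p = 0.021) and -0.51 ± 0.20 for MT-ND2 (adjusted p = 0.031). Without the first Aconiti low-dose library these were -0.38 (adjusted p = 0.133) and -0.33 (adjusted p = 0.188). Without the third Bupleuri high-dose library they were -0.40 (adjusted p = 0.118) and -0.42 (adjusted p = 0.0987). The MT-ND2 value also lost its call without the first Bupleuri low-dose library, the first Aconiti high-dose library or the second Aconiti high-dose library, with adjusted p from 0.0612 to 0.0678.

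The remaining complex I subunits encoded further along fell or were not called. MT-ND4 was 5404, 5399 and 5883 CPM in vehicle, 4741, 3601 and 4177 CPM at the low dose of Aconiti, 3311, 3150 and 3420 CPM at the medium dose, and 4629, 4461 and 4314 CPM at the high dose. All 9 Aconiti libraries lay below vehicle, and below the 48 tested libraries without Aconiti, of which the lowest was 5322 CPM. Against vehicle MT-ND4 was not called at the low dose (log2 -0.41 ± 0.12, adjusted p = 0.051) and fell at the medium dose (-0.76 ± 0.12, adjusted p = 1.6e-06) and the high dose (-0.32 ± 0.12, adjusted p = 0.020). The high-dose call was lost without the third vehicle library (adjusted p = 0.0733) or the third Aconiti high-dose library (adjusted p = 0.0554).

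MT-ND4L, which shares a messenger with MT-ND4, was 745, 807 and 732 CPM in vehicle, 562, 511 and 546 CPM at the low dose, 471, 443 and 424 CPM at the medium dose, and 584, 638 and 550 CPM at the high dose. It fell at each dose against vehicle, by 0.50 ± 0.10, 0.77 ± 0.10 and 0.37 ± 0.10 on the log2 scale (adjusted p = 1.1e-03, 7.2e-09 and 8.7e-04 at the low, medium and high dose). MT-ND5, the largest of these subunits, ranged from 1658 to 2024 CPM in the 9 Aconiti libraries and from 2266 to 3992 CPM in the other 48. It fell at the medium dose by 0.41 ± 0.11 (adjusted p = 2.6e-03) and at the high dose by 0.43 ± 0.11 (adjusted p = 5.8e-04). MT-ND3 fell at the medium dose (-0.50 ± 0.13, adjusted p = 2.1e-03) and was not called at the low dose (0.16 ± 0.13) or the high dose (-0.05 ± 0.13).

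MT-ND6, the light-strand gene, had 259, 252 and 228 CPM in vehicle, 274, 246 and 242 CPM at the low dose, 256, 258 and 260 CPM at the medium dose and 260, 258 and 241 CPM at the high dose of Aconiti. The groups overlapped at every dose, and the log2 differences from vehicle lay between 0.04 and 0.07 with an SE of 0.17. MT-CYB, the subunit of complex III, had 2821 to 3306 CPM in the Aconiti libraries and 3300, 3380 and 3682 CPM in vehicle, and was not called at any dose against vehicle. Against Bupleuri it was lower at the medium dose (-0.30 ± 0.11, adjusted p = 0.040) and the high dose (-0.41 ± 0.11, adjusted p = 1.6e-03). The medium-dose call was lost without any 1 of 5 libraries of those groups, all but the third Bupleuri one, with adjusted p from 0.0725 to 0.176.

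The complex IV genes encode the catalytic core of cytochrome c oxidase. MT-CO3 was 4487, 4297 and 4313 CPM in vehicle, 3372, 2932 and 3134 CPM at the low dose of Aconiti, 2550, 2600 and 2728 CPM at the medium dose, and 3472, 3577 and 3667 CPM at the high dose. It fell at every dose against vehicle, by 0.47 ± 0.08 (adjusted p = 2.9e-04), 0.73 ± 0.08 (adjusted p = 6.1e-10) and 0.29 ± 0.08 (adjusted p = 2.3e-03) on the log2 scale. MT-CO2 was 4792, 4793 and 4833 CPM in vehicle, 4020, 3544 and 3859 CPM at the low dose, 2721, 2706 and 3018 CPM at the medium dose, and 3374, 3231 and 3271 CPM at the high dose. No Aconiti library reached the vehicle level. Its fall was 0.77 ± 0.13 at the medium dose (adjusted p = 2.8e-06) and 0.55 ± 0.13 at the high dose (adjusted p = 1.9e-04), while the low-dose difference of -0.34 ± 0.13 was not called (adjusted p = 0.18).

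MT-CO1 ranged from 7597 to 10703 CPM in the 9 Aconiti libraries and from 10690 to 17221 CPM in the other 48. Against vehicle it fell by 0.51 ± 0.09 at the medium dose (adjusted p = 2.5e-05) and by 0.23 ± 0.09 at the high dose (adjusted p = 0.033). The high-dose call was lost without the first or the third vehicle library, or without the second or the third Aconiti one, with adjusted p from 0.0605 to 0.0827. Of the ATP synthase genes, MT-ATP6 fell at the medium dose by 0.62 ± 0.12 (adjusted p = 6.7e-05) and was not called at the low dose (-0.26 ± 0.12) or the high dose (-0.21 ± 0.12). MT-ATP8, low and partly within MT-ATP6, was called at no dose against vehicle, with log2 differences from -0.39 to -0.06 and an SE of 0.26.

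By count, 4 of the 15 tested genes rose and 2 fell at the low dose of Aconiti against vehicle, 2 rose and 8 fell at the medium dose, and 2 rose and 6 fell at the high dose. Of all genes tested, 2.19%, 31.1% and 60.4% were called at the low, medium and high dose. The 8 of 15 called at the high dose are thus near the share of all genes. The groups did not overlap for 4 genes higher and 7 lower at the low dose, where 9.67% of all genes were higher and 10.6% lower without overlap. The median log2 change of the 13 protein genes was -0.20 at the low dose, -0.50 at the medium dose and -0.21 at the high dose, beside medians near 0 for all genes tested (-0.0030, 0.0027 and 0.0055). With library totals in place of TMM factors the median of all genes moved to -0.11 at the medium dose and -0.12 at the high dose against vehicle, so the smaller falls at those doses depend on the scaling for their size, although none of the Aconiti calls was lost.

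Between the doses of Aconiti, the summed protein genes were lowest at the medium dose. Against the low dose, 9 of 13 fell at the medium dose, where 20.4% of all genes were called and 9.5% were called lower, and the rRNAs rose by log2 1.84 ± 0.08 and 1.32 ± 0.07. Without the first Aconiti low-dose library or without the second medium-dose one, 7 of the 15 genes were called in place of 11, and MT-ATP6, MT-CO3, MT-ND4L and MT-ND4 lost their calls. Without the first or the third medium-dose library, or the third low-dose one, 3 of those 4 lost theirs. Against the medium dose, 6 protein genes rose at the high dose: MT-CO1, MT-ATP6, MT-CO3, MT-ND3, MT-ND4L and MT-ND4, by log2 0.28 to 0.45, where 24.8% of all genes were called higher. The MT-CO1 call was lost without the first medium-dose library (adjusted p = 0.0583). The groups of CPM values did not overlap for 8 protein genes that were higher and 1 that was lower, beside 28.9% and 26.2% of all genes.

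Against Bupleuri, 2 of the 15 genes were higher and 8 lower with Aconiti at the high dose, 2 were higher and 9 lower at the medium dose, and 4 were higher and 3 lower at the low dose. Of all genes tested, 58.3%, 28.6% and 0.535% were called at the high, medium and low dose, so the 10 of 15 at the high dose are near the share of all genes. At the medium dose MT-ND4L had 471, 443 and 424 CPM with Aconiti, against 1010, 871 and 787 CPM with Bupleuri (log2 -0.996 ± 0.10, adjusted p = 7.9e-12), without overlap. MT-ND4 was lower there by 0.94 ± 0.12 (adjusted p = 1.9e-08) and MT-CO3 by 0.87 ± 0.08 (adjusted p = 6.5e-12). At the low dose MT-CO3 was lower by 0.58 ± 0.08 (adjusted p = 9.3e-06), MT-ND4L by 0.55 ± 0.10 (adjusted p = 4.2e-04) and MT-ND4 by 0.51 ± 0.12 (adjusted p = 0.022). The MT-ND4 call at the low dose was lost without the second or the third library of either group, with adjusted p from 0.0994 to 0.271. At the high dose MT-CO1 (-0.23 ± 0.09, adjusted p = 0.030) and MT-ATP6 (-0.33 ± 0.12, adjusted p = 0.019) lost their calls without the third Bupleuri library, MT-CO1 also without the first Bupleuri library or the second or the third Aconiti one.

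**Figure D2:**
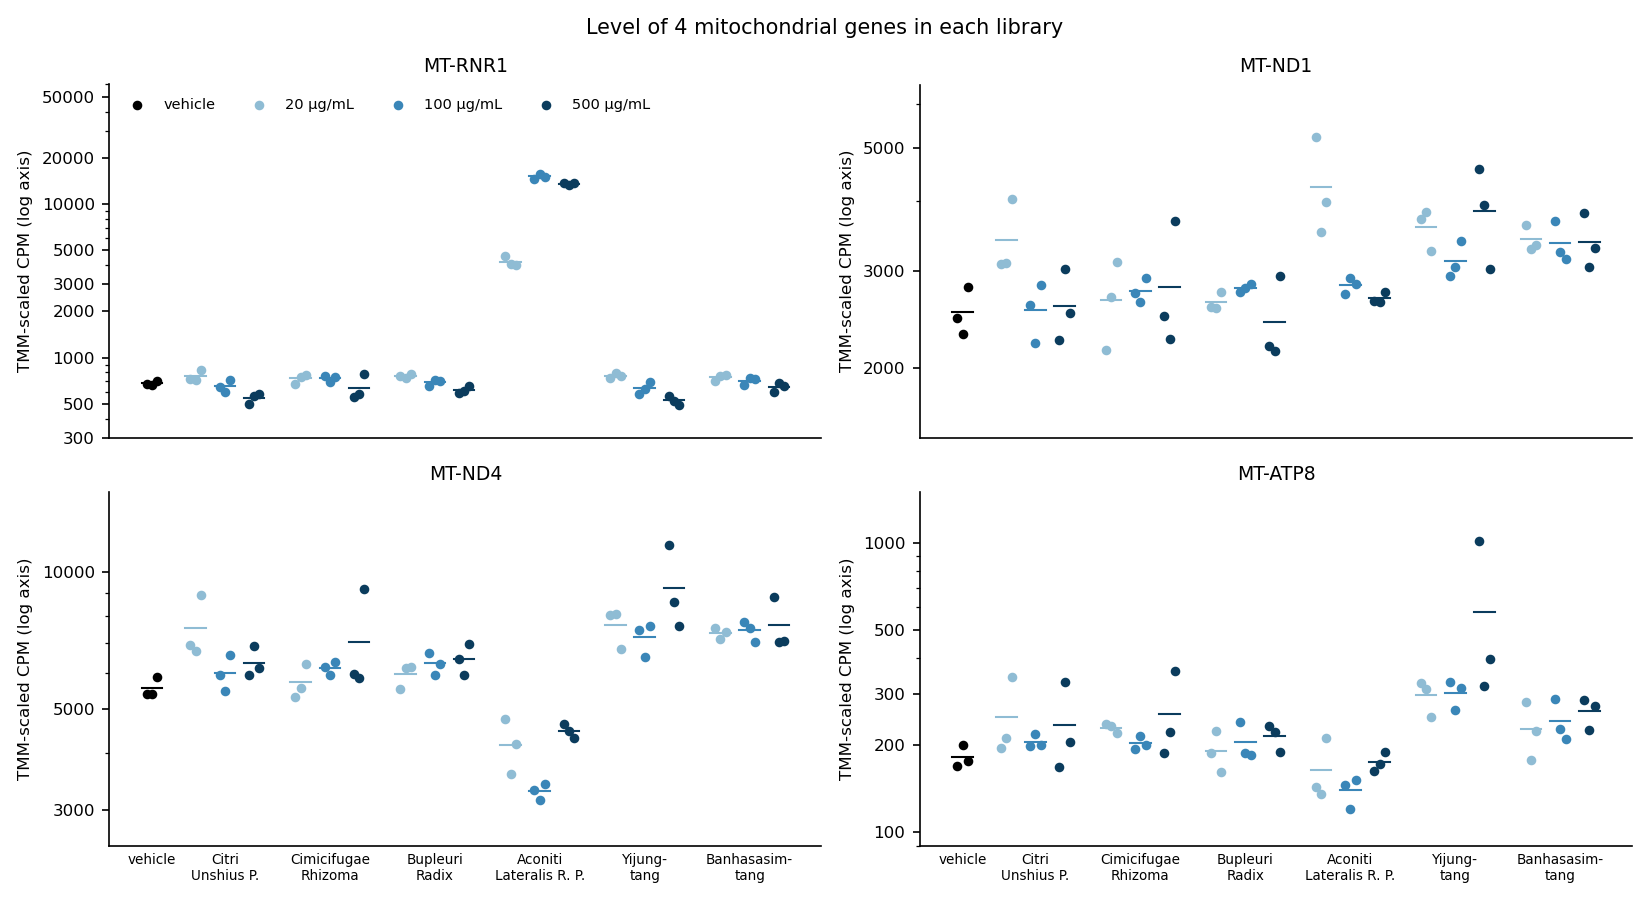
TMM-scaled CPM (log y axis) of MT-RNR1, MT-ND1, MT-ND4 and MT-ATP8 in every library of vehicle and of 6 extracts at 20, 100 and 500 µg/mL (x axis), with points for libraries and bars for means of 3. MT-RNR1 stands between 3998 and 15740 CPM in the Aconiti libraries, MT-ND1 is high only at the low dose of Aconiti among its 3 doses, MT-ND4 is lowest with Aconiti, and 1 Yijung-tang high-dose library holds 1014 CPM of MT-ATP8.

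Read along the genome, the differences between Aconiti and Bupleuri were highest in the rRNA genes and changed sign after MT-ND2 at the low dose. At the low dose the log2 difference was 2.48 for MT-RNR1, 1.50 for MT-RNR2, 0.69 for MT-ND1 and 0.57 for MT-ND2, and it lay between -0.58 and 0.08, with a median of -0.35 and MT-ND3 the highest, for the 10 heavy-strand protein genes further along. At the medium dose MT-ND1 and MT-ND2 stood at 0.01 and -0.14 and those 10 genes between -0.996 and -0.30. At the high dose MT-ND1 and MT-ND2 stood at 0.14 and 0.06 and the 10 genes between -0.56 and -0.16. The split after MT-ND2 was chosen after the values were seen. Across the 12 heavy-strand protein genes, Pearson's r between distance from the start of MT-TF and the log2 difference was -0.69 at the low dose, -0.43 at the medium dose and -0.72 at the high dose. Against vehicle, r was -0.67 at the low, -0.32 at the medium and -0.49 at the high dose of Aconiti. For Bupleuri against vehicle it was 0.15 at the low dose and 0.70 at the high dose. The high-dose difference between the extracts thus holds the differences of both from vehicle. These r values include MT-ND1 and MT-ND2 and were not computed without them, so they do not tell the split from a trend along the other 10 genes. The farthest of those, MT-CYB, stood at -0.20, -0.07 and -0.19 against vehicle at the low, medium and high dose of Aconiti. The medians of the 10 were -0.29, -0.57 and -0.26. All these correlations are descriptions over 12 genes that share precursors and libraries, not independent points.

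**Figure D3:**
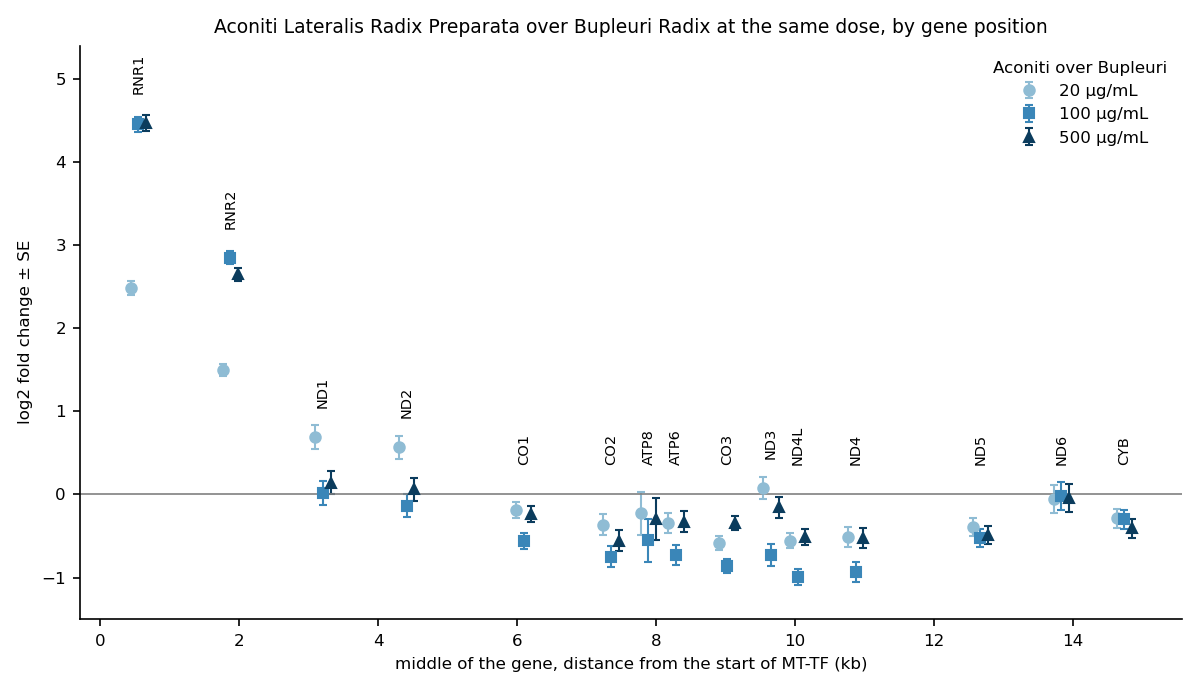
Log2 fold change of Aconiti over Bupleuri at the same dose (y axis, ± SE of the fit) against the distance of each gene's middle from the start of MT-TF in kilobases (x axis), at 20, 100 and 500 µg/mL. MT-RNR1 and MT-RNR2 lie highest at each dose, MT-ND1 and MT-ND2 lie above 0 at the low dose, and most genes further along lie below 0.

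Other RNAs without a conventional poly(A) tail were measured beside the rRNAs. MALAT1, which ends without such a tail, and NEAT1, whose long form does, are nuclear noncoding RNAs and rose with Aconiti against vehicle, MALAT1 by log2 0.36 ± 0.06, 0.64 ± 0.06 and 0.83 ± 0.06 and NEAT1 by 0.40 ± 0.07, 0.75 ± 0.07 and 0.81 ± 0.07 at the low, medium and high dose (adjusted p at most 4.3e-04). Both were also higher in some other extracts, among them the high dose of Citri (0.38 and 0.69). Replication-dependent histone genes, whose messengers end without poly(A), summed to 68.0 to 79.6 CPM in vehicle, 71.4 to 76.9 CPM at the low, 57.6 to 65.6 CPM at the medium and 67.0 to 75.6 CPM at the high dose of Aconiti. Of the 65 listed, 5 were at 0 in every library and 14 averaged at least 1 CPM. Without H1-10, a replication-independent histone gene that was removed after the values were seen, the sums were 49.8 to 53.0 CPM in vehicle and 43.4 to 46.8, 31.4 to 34.2 and 23.5 to 23.9 CPM at the low, medium and high dose. A list of 12 small noncoding RNA genes, also added later, of which 11 were in the table, 3 at 0 in every library and 2 averaging at least 1 CPM, summed to 5.88 to 18.6 CPM in vehicle and 3.58 to 4.19, 3.69 to 5.78 and 3.06 to 7.86 CPM at those doses. These histone and small RNA sums are CPM over the library total, without the TMM factors used for MALAT1 and NEAT1. On that scale no Aconiti library exceeded the vehicle range in them. The TMM factors were 0.917 to 0.922 at the high dose of Aconiti and 1.003 to 1.009 in vehicle. Scaled sums would thus stand higher at that dose beside vehicle. The full histone sum, at most 75.6 CPM there against 79.6 CPM in vehicle, could then pass the vehicle range. The part of library preparation in the rRNA result was not tested.

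Nuclear genes that transcribe, process and degrade mitochondrial RNA were followed as a list of 42, all of which were tested. With Aconiti against vehicle, edgeR called none at the low dose (7 at an unadjusted p under 0.05), 6 rose and 6 fell at the medium dose, and 11 rose and 14 fell at the high dose. These counts of 0, 12 and 25 of 42 are near the shares of all genes called (2.19%, 31.1% and 60.4%), and the list medians were 0.0013, -0.023 and 0.0090. SUPV3L1, the helicase of the mitochondrial RNA degradation complex, was 39.0 ± 1.15 CPM in vehicle, 40.2 ± 1.04 at the low dose, 48.8 ± 1.76 at the medium dose and 83.1 ± 0.518 at the high dose (SD, n = 3 each). It rose by log2 0.32 ± 0.04 at the medium dose (adjusted p = 1.2e-08) and 1.09 ± 0.04 at the high dose (adjusted p = 8.0e-29).

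POLRMT, the mitochondrial RNA polymerase, was 35.9 ± 2.68 CPM in vehicle, 39.4 ± 2.39 at the low dose, 44.7 ± 0.782 at the medium dose and 60.9 ± 2.33 at the high dose, a rise of log2 0.76 ± 0.06 at the high dose (adjusted p = 2.7e-15). ESRRA, a nuclear receptor that controls genes of mitochondrial metabolism, rose by 0.48 ± 0.08, MTERF3 by 0.40 ± 0.05 and POLG2, the accessory subunit of the mitochondrial DNA polymerase, by 0.36 ± 0.10. FASTKD5, which takes part in processing mitochondrial messengers without flanking tRNAs, was 21.1 ± 1.00 CPM in vehicle, 18.6 ± 0.829 at the low dose, 15.0 ± 0.980 at the medium dose and 10.2 ± 0.817 at the high dose, a fall of 1.05 ± 0.06 (adjusted p = 1.3e-20). MTERF1, a transcription termination factor that binds just past MT-RNR2, fell by 0.68 ± 0.06, MTERF2 by 0.68 ± 0.10, the elongation factor TEFM by 0.59 ± 0.09 and FASTKD3 by 0.49 ± 0.07. Each of these changes with Aconiti had an adjusted p of at most 1.7e-03.

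Copies of mitochondrial genes in the nuclear genome can share reads with their originals, and counting by RSEM divides such reads by estimate. The table lists 391 such copies, of which 122 had any count, 3 had a mean count of at least 100 and 6 were tested. MTND2P28, a copy of MT-ND2, was 174 ± 21.7 CPM at the low dose of Aconiti against 121 ± 6.09 CPM in vehicle (log2 0.52 ± 0.11, adjusted p = 2.9e-03), the dose at which MT-ND2 rose. MTCO1P12, a copy of MT-CO1, was 34.5 ± 0.778 CPM at the medium dose and 39.5 ± 5.56 CPM at the high dose, against 48.1 ± 1.58 CPM in vehicle (log2 -0.48 ± 0.11 and -0.29 ± 0.10, adjusted p = 3.7e-04 and 0.014). No copy of an rRNA gene was among the 6 tested.

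Both set 7 formulas had protein genes called higher than vehicle. With Yijung-tang at the high dose all 13 protein genes were higher than in vehicle and both rRNAs lower, where 32% of all genes were called. Of these, MT-CO1 and MT-ND4L were not called without the first Yijung-tang library (adjusted p = 0.296 and 0.722) or the first vehicle library (0.0607 and 0.105), MT-CO1 not without the second (0.0836) and MT-ND4L not without the third vehicle library (0.120), and MT-RNR2 not without the third Yijung-tang library (0.0843). Banhasasim-tang at the high dose had 10 protein genes higher than vehicle and no rRNA called, where 16.8% of all genes were called and 7.99% were called higher. At the low dose 8 genes were higher with Yijung-tang, 7 protein genes and MT-RNR2, and 4 with Banhasasim-tang, all protein genes, where 6.38% and 5.76% of all genes were called and 2.72% and 2.62% were called higher. For both formulas MT-CO3, MT-ND3, MT-ND4 and MT-ND6 were among those higher at the low dose. The protein share was 4.21% ± 0.109 in vehicle and 5.46% ± 0.321 at the low, 5.24% ± 0.264 at the medium and 6.13% ± 1.11 at the high dose of Yijung-tang. With Banhasasim-tang it was 5.16% ± 0.230, 5.17% ± 0.273 and 5.39% ± 0.491 at the same doses. The low and medium doses of both formulas already lay above vehicle, in a comparison where code set and treatment cannot be told apart. These counts also moved with single libraries: without the first Banhasasim-tang high-dose library 2 of its 10 were called, and without the second vehicle library 6. With any 1 library of those groups left out, 2 to 9 genes were called, never 10. At the low dose, Yijung-tang had 2 called without its second library, 3 and 4 without the first or the second vehicle library and 5 without its first library. Banhasasim-tang at the low dose had 1 called without its first library and 2 without the third or without any 1 vehicle library.

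Within Yijung-tang the comparison of high with low dose is free of the code set. MT-RNR1 was 565, 523 and 491 CPM at the high dose against 733, 791 and 760 CPM at the low dose (log2 -0.53 ± 0.08, adjusted p = 1.4e-06). MT-RNR2 was 7792, 7324 and 6462 CPM at the high dose against 9507, 10833 and 10168 CPM at the low dose (log2 -0.50 ± 0.07, adjusted p = 6.1e-07). Neither overlapped, where 16.8% of all genes were lower without overlap and 21.7% were called. The fall of MT-RNR2 differed from that in Banhasasim-tang by log2 -0.38 ± 0.10 (adjusted p = 0.011, 10.1% of all genes called). Without the third Yijung-tang high-dose library no mitochondrial gene was called in that comparison of changes, and without its first or second library, or the first Banhasasim-tang high-dose library, 2 were.

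MT-ATP8 was 1014, 320 and 396 CPM at the high dose of Yijung-tang against 330, 314 and 250 CPM at the low dose (log2 0.95 ± 0.24, adjusted p = 3.1e-03), and the groups overlapped. MT-ND6 was 768, 420 and 513 CPM at the high dose against 399, 391 and 355 CPM at the low dose (log2 0.57 ± 0.16, adjusted p = 7.9e-03), without overlap. The first high-dose library was the highest for both. Without it the differences were 0.26 (adjusted p = 0.452) and 0.28 (adjusted p = 0.255), so both calls rest on that library, which also had the mitochondrial share of 8.21%. Without the third high-dose library 7 of the 15 genes were called in place of 4. MTATP6P1, a copy of MT-ATP6, was 654 ± 145 CPM at the high dose of Yijung-tang against 319 ± 31.3 CPM in vehicle (log2 1.03 ± 0.18, adjusted p = 9.3e-06).

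Between the formulas at the high dose, Yijung-tang had higher MT-ATP8 (log2 1.13 ± 0.25), MT-CO3, MT-ND4L and MT-ND6 and lower MT-RNR1 (-0.29 ± 0.08, adjusted p = 6.2e-03) and MT-RNR2 (-0.32 ± 0.07, adjusted p = 6.2e-04), where 23.8% of all genes were called. Without the first Yijung-tang library, or without the second Banhasasim-tang one, 2 of these 6 were called. Without the third Yijung-tang library MT-RNR1 (adjusted p = 0.0564) and without the third Banhasasim-tang library MT-ND6 (adjusted p = 0.121) lost their calls. Banhasasim-tang itself had no mitochondrial gene called between its high and low dose by edgeR or DESeq2, with 1 at an unadjusted p under 0.05 in edgeR, where 6.67% of all genes were called.

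For Bupleuri, neither edgeR nor DESeq2 called a mitochondrial gene against vehicle at the high dose (0 at an unadjusted p under 0.05 in edgeR, 7.01% of all genes called) or the low dose (1 unadjusted, 0.0756% called). Its rRNAs were lower at the high dose. MT-RNR1 was 584, 607 and 648 CPM at the high dose, against 753, 740 and 776 CPM at the low dose (log2 -0.30 ± 0.08, adjusted p = 0.017). MT-RNR2 differed by -0.27 ± 0.07 (adjusted p = 0.018), while 4.37% of all genes were called and 2.45% were called lower. Neither was called without the first or the second high-dose library or the third low-dose library, and 1 was without the first low-dose library.

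Citri at the high dose had both rRNAs below their low-dose levels, MT-RNR1 by 0.47 ± 0.08 (adjusted p = 2.2e-05) and MT-RNR2 by 0.43 ± 0.07 (adjusted p = 1.4e-05), and MT-ND1 and MT-ND5 lower by 0.39 ± 0.14 and 0.33 ± 0.11 (adjusted p = 0.044 and 0.026), where 18.2% of all genes were called and 10% were called lower. Without the third low-dose library, which stood apart, or without the first or the third high-dose library, 2 of these 4 were called. Against vehicle, MT-RNR1 was lower at the high dose of Citri by 0.32 ± 0.08 (adjusted p = 2.6e-03, 21.6% of all genes called). MT-RNR2 and MT-ND4 were higher at the low dose of Citri than in vehicle by 0.27 ± 0.07 and 0.44 ± 0.12 (adjusted p = 0.034 and 0.041, 1.88% of all genes called, 1.16% called higher). Neither was called without the third Citri low-dose library or the first or second vehicle library, 1 was without the third vehicle library, and 4 genes were without the first or second Citri library.

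For Cimicifugae, neither edgeR nor DESeq2 called a mitochondrial gene between high and low dose (5 at an unadjusted p under 0.05 in edgeR, 25.1% of all genes called) or between low dose and vehicle (1 unadjusted, 1.27% called). Its high dose had MT-CO1 and MT-ND4 higher than vehicle, by 0.26 ± 0.09 and 0.33 ± 0.12 (adjusted p = 0.032 and 0.027, 32.5% of all genes called, 15.1% called higher). Without the third Cimicifugae library, which stood apart, 1 gene was called, without the first or second vehicle library none, and without its first or second library 6. Between Citri and Cimicifugae at the high dose neither tool called a mitochondrial gene (3 unadjusted in edgeR), beside 12.3% of all genes. Their dose changes differed for MT-CO1, MT-ND4, MT-ND5 and MT-CYB, by log2 -0.54 to -0.42, where 11.2% of all genes were called and 5.6% were called lower. None of these 4 was called without the third library of either group that stood apart, Citri low or Cimicifugae high, nor without the first or the third Citri high-dose library or the first Cimicifugae low-dose library. With the second Cimicifugae low-dose library left out 1 gene was called, and with the first or the second Cimicifugae high-dose library left out 7 and 8 were.

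At the medium dose against the low dose, none of the 15 genes was called for Citri, Cimicifugae, Bupleuri, Yijung-tang or Banhasasim-tang, by edgeR or DESeq2. edgeR called 0.227%, 0.105%, 0.0407%, 0.116% and 0.506% of all genes in those comparisons, and at an unadjusted p under 0.05 it had 9 mitochondrial genes for Citri, 2 for Yijung-tang and 0 for Cimicifugae, Bupleuri and Banhasasim-tang. Of these differences the farthest from 0 were those of MT-ND1 with Citri (log2 -0.42 ± 0.14, adjusted p = 0.26) and MT-ND6 with Citri (-0.33 ± 0.16, adjusted p = 0.46). The Citri low-dose group includes the third library, which stood apart, with 7.37% of counts on mitochondrial genes against 5.88% and 5.75% in the first and second. Unadjusted counts, here and above, are given without the share of all genes at that threshold. The shares beside them use the adjusted p, so the unadjusted counts are not a result about these genes. These medium-dose comparisons, and all others that involve the medium dose, were added after the shares had been seen.

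Bojungikgi-tang has 1 library per dose, so its values have no replicate check and no test. The rRNA share was 1.06% at the low dose (95% exact binomial interval 1.06% to 1.07%), 1.02% at the medium dose (1.01% to 1.02%) and 0.919% at the high dose (0.916% to 0.923%). The protein gene share was 5.54% (5.53% to 5.54%), 5.23% (5.23% to 5.24%) and 5.03% (5.03% to 5.04%) at the same doses, and these intervals cover counting error only. MT-RNR1 was 736, 684 and 588 CPM, and MT-ATP8 229, 209 and 268 CPM. All of these lie within the range of the other libraries without Aconiti.

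**Figure D4:**
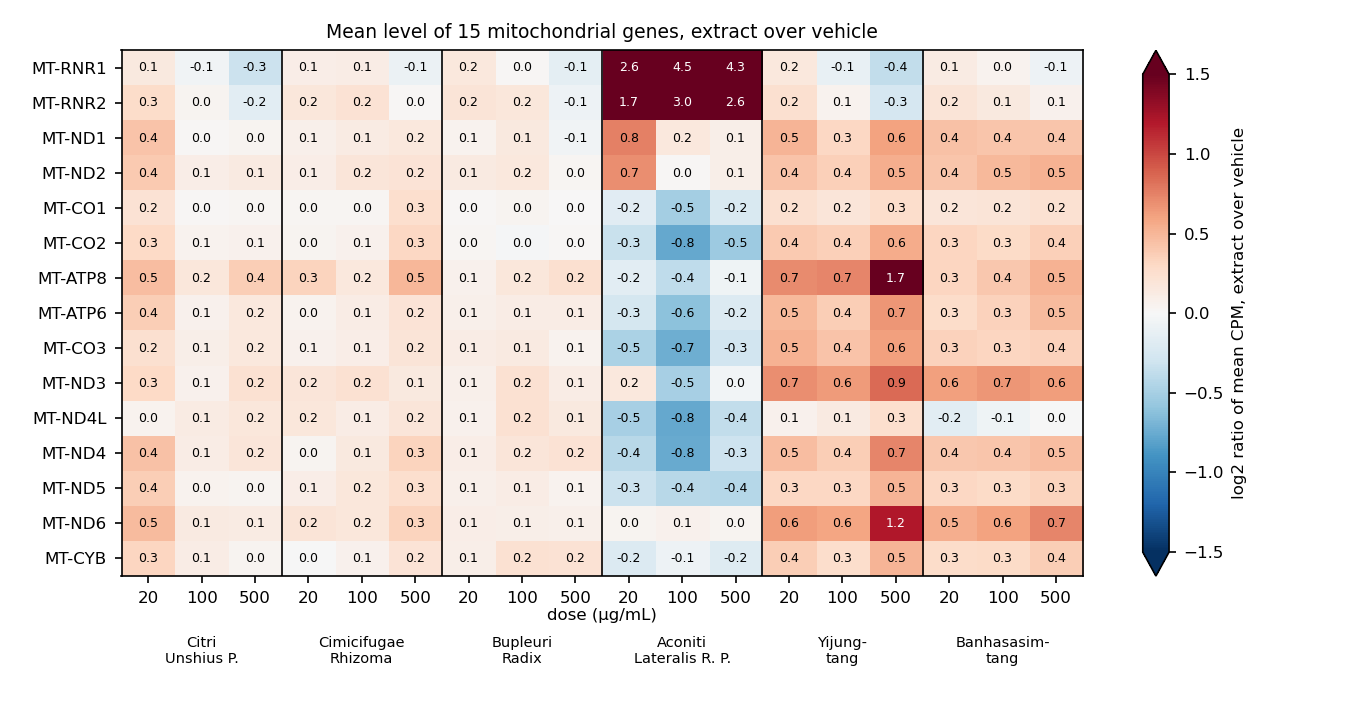
Log2 ratio of the mean CPM of each of the 15 tested mitochondrial genes (rows, in genome order) in each extract and dose (columns, µg/mL) over the mean in vehicle, with the ratio printed in each cell and colours limited to 1.5 either way. Aconiti stands out by both rRNAs, at 1.69 to 4.48, and by lower values for most protein genes, and Yijung-tang at 500 µg/mL by MT-ATP8 and MT-ND6.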

How the data were processed

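The authors deposited expected counts, estimated reads per gene and library that need not be whole. The labels' protocols name an MGI directional kit, by which mRNA libraries were prepared and then read from both ends. RSEM 1.3.3 and STAR 2.7.3a appear in the submitters' processing notes, beside Trim Galore 0.6.5, FastQC 0.11.9, hg38 and GRCh38. No source used here gives the annotation release, strand setting or filters. Of the expected counts, 9.22% were not whole (tolerance 1e-06).

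Symbols, coordinates and sequences were taken from GENCODE 29 on GRCh38, which named 56558 of 60675 genes. Expected counts were rounded, genes kept with filterByExpr by group, libraries scaled by TMM factors, and the 57 libraries of the 19 groups with 3 libraries fitted together with edgeR 4.0.16 (glmQLFit, glmQLFTest) in R 4.3.3. DESeq2 1.42.0 and limma 3.58.1 were used for alternatives and supporting functions, and Python 3.11.15 with pandas 2.3.3, numpy 2.4.6 and matplotlib 3.10.9 for sums and figures. The scripts were tested on simulated data. Shares are sums of counts over the library total. Levels of cell-type markers, and the marker, histone and small RNA sums, are CPM over that total, without TMM factors.

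Replicate libraries differed by more than sampling noise (chi-square per degree of freedom 1.77 to 24.0), and none was merged. All members are accounted for, with values per library for those that called comparisons turn on, the 5 highest tRNAs are named, and of the 42 nuclear genes up to 5 called rises and 5 falls with at least 5 CPM. The genes, lists, comparisons and tests were chosen with earlier results of these data known. Alternatives were RLE factors, library totals, TMM without mitochondrial genes, no filter, a replicate block, the compared groups alone, DESeq2 and leaving out libraries.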

Additional observations from a re-analysis of the deposited data

Results flagged for a closer look

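Dose changes that differed between the 2 extracts of a code set, by edgeR's test of the difference itself, concern 9 values. Between Aconiti Lateralis Radix Preparata and Bupleuri Radix the high minus low change differed by log2 1.99 for MT-RNR1, 1.15 for MT-RNR2, -0.55 for MT-ND1 and -0.51 for MT-ND2. Both rRNA values kept their calls in each alternative run, and the MT-ND1 and MT-ND2 values did not without the first Aconiti low-dose library or the third Bupleuri high-dose library. Between Citri Unshius Pericarpium and Cimicifugae Rhizoma it differed by -0.42 for MT-CO1, -0.54 for MT-ND4, -0.48 for MT-ND5 and -0.48 for MT-CYB. None of those 4 was called without the 2 libraries that stood apart. Between Yijung-tang and Banhasasim-tang it differed by -0.38 for MT-RNR2. Dixon's test for outlying values was not run on groups of 3 libraries.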

How the results depend on the processing

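Of the 510 values of single genes, none that was called in the fit of the 57 libraries changed sign under any alternative. Sign changes of values not called there were not counted. Scaling by RLE factors, or by TMM factors computed without the mitochondrial genes, left every call as it was, and DESeq2 ended 6 calls and added none. Both rRNA genes kept each call with Aconiti in which they were called against vehicle, Bupleuri or the low dose. Counts of genes called (of 15) depended on the fit elsewhere. The counts in this section are given without the shares of all genes called in the same fits. They show how far calls depended on the fit, not a trait of the mitochondrial genes. For high against low dose, the count without a filter on low counts was 12 for Citri, Cimicifugae and Yijung-tang, 5 for Bupleuri, 10 for Aconiti and 6 for Banhasasim-tang. For medium against low dose it was 14 for Citri, 1 for Cimicifugae, 4 for Bupleuri and 3 for Yijung-tang, and for Aconiti high against medium 11. Against vehicle at the high dose it was 10 for Citri, 13 for Cimicifugae and 7 for Bupleuri, and at the low dose 14 for Citri, 5 for Cimicifugae, 2 for Bupleuri, 14 for Aconiti, 14 for Yijung-tang and 15 for Banhasasim-tang. Between extracts at the high dose it was 10 for Citri against Cimicifugae and 13 for Yijung-tang against Banhasasim-tang, and 13 for Aconiti against Bupleuri at the low dose. For the differences of dose changes it was 13, 7 and 6 for sets 5, 6 and 7. The causes were not tested.

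Without both libraries that stood apart, counts of high against low dose were 2 for Citri, 2 for Cimicifugae and 1 for Banhasasim-tang, and 1 for Yijung-tang medium against low. Against vehicle they were 2 for Citri and 1 for Cimicifugae at the high dose, and 0 for Citri, 13 for Yijung-tang and 10 for Banhasasim-tang at the low dose. The differences of dose changes gave 0 in set 5 and 2 in set 7. In fits of the compared groups alone, high against low dose gave 2 for Citri, 8 for Aconiti and 2 for Banhasasim-tang, medium against low 1 for Cimicifugae, and high against medium 12 for Aconiti. Against vehicle such fits gave 7, 1 and 4 for Citri, Cimicifugae and Bupleuri at the high dose, and 0, 3, 2, 11, 14 and 14 for Citri, Cimicifugae, Bupleuri, Aconiti, Yijung-tang and Banhasasim-tang at the low dose. They gave 3 for Yijung-tang against Banhasasim-tang at the high dose, 11 for Aconiti against Bupleuri at the low dose, and 0 and 2 for the dose changes of sets 5 and 7. With library totals, Cimicifugae gave 2 for high against low and 6 against vehicle, and Citri against Cimicifugae gave 1.

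The replicate numbers did not pair the samples: in 31 comparisons, correlations of same-numbered libraries lay between -0.056 and 0.095. A replicate block gave 1 call for Cimicifugae high against low, 1 for Citri against Cimicifugae and 2 for the dose changes of set 7, and a replicate block within the code set gave 3, 1 and 2, and 1 for Banhasasim-tang high against low. Shares over the TMM-scaled total were 6.45% and 8.44% for rRNA and 3.55% and 3.05% for protein genes with Aconiti at the high and medium dose, and 1.07% for rRNA with Cimicifugae at the medium dose.

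Leaving out 1 library, counts ranged from 2 to 6 for Citri, 0 to 4 for Cimicifugae, 0 to 2 for Bupleuri and 2 to 7 for Yijung-tang in high against low dose, and from 7 to 11 for Aconiti medium against low. Against vehicle they ranged from 0 to 6 for Cimicifugae and 2 to 9 for Banhasasim-tang at the high dose, and from 0 to 4, 2 to 8 and 1 to 3 for Citri, Yijung-tang and Banhasasim-tang at the low dose. They ranged from 0 to 4 for Citri against Cimicifugae, 2 to 7 for Yijung-tang against Banhasasim-tang, and 0 to 8, 2 to 4 and 0 to 2 for the dose changes of sets 5, 6 and 7. The tRNA genes, with 69 counts in all, could not be compared between groups at this depth.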
